A study of Mus musculus with 6 samples.

Results

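A set of 10 chemokine ligand genes was followed in mouse CD4+CD25+ T cells sorted by surface ILT3. They are Ccl1, Ccl3, Ccl4, Ccl5, Ccl20, Ccl22, Cx3cl1, Cxcl10, Cxcl16 and Xcl1, all 10 found by name among the 38924 gene models of the deposited tables. They were chosen by name with their total gene and unique exon reads in these 6 libraries known, so their differences between the groups are given as a description and support no claim. After magnetic enrichment, flow cytometry sorted the cells from spleen and mesenteric lymph nodes of untreated WT mice, male and female, aged 10 to 16 weeks. The strain is not given in the sources used here. ILT3, an immunoglobulin-like surface receptor that dampens immune cells, is encoded by Lilrb4 in mice. ILT3+CD4+CD25+ T cells (3 samples) were compared with ILT3-CD4+CD25+ T cells (3 samples), and every group shared the same genotype, tissue and lack of treatment. Whether each sample is 1 animal or a pool is not stated, so the spread between samples, and any p-value built on it, may be partly technical. The question is what sets regulatory T cells with surface ILT3 apart from those without it.

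Chemokines are small secreted proteins that guide leukocytes through G-protein-coupled receptors, and they are classed by the spacing of their conserved cysteines into CC, CXC, CX3C and XC ligands. Activated T cells are themselves a source. Ccl3, Ccl4, Ccl5 and Xcl1 are typical products of stimulated effector lymphocytes, Ccl20 of type 17 cells and Ccl1 of type 2 and regulatory T cells. Ccl22 is best known as a product of dendritic cells that attracts regulatory T cells, and Cxcl10 as an interferon-induced ligand. Cx3cl1 and Cxcl16 differ from the others in being made as transmembrane proteins that are shed by cell surface proteases.

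All 10 ligand genes had a higher mean level in ILT3+ than in ILT3- cells, but they fell into unlike patterns. Cx3cl1, Cxcl10 and Ccl22 were far higher in each of the 3 ILT3+ samples than in any ILT3- sample, where Ccl22 had no reads. The ILT3+ level of Ccl22 was itself modest, at 111 to 116 reads per library. Only 7.92% of the Cxcl10 reads were counted as unique. Ccl5 and Ccl20 also separated the groups, with a spread of several-fold within ILT3+ cells. Ccl3, Ccl4, Xcl1 and Ccl1 varied so much from sample to sample that the groups overlapped, and Cxcl16 was low throughout with ranges that did not overlap. In RNA of bulk samples, fewer cells of a type and less RNA per cell cannot be told apart.

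Depth was 10768217 to 11960289 total gene reads in ILT3+ libraries and 9334370 to 13648274 in ILT3- libraries. Lilrb4 had 304, 284 and 407 CPM (the read count scaled to library size) in ILT3+ samples 1, 2 and 3, against 3.24, 4.32 and 5.81 CPM in ILT3- samples 1, 2 and 3, which is the direction of the labels. Foxp3, the factor that defines regulatory T cells, averaged 861 ± 127 CPM in ILT3+ libraries, against 862 ± 233 CPM in ILT3- libraries (SD, n = 3 each). Summed markers of T cells were 3810 to 4740 CPM in ILT3+ and 4470 to 5520 CPM in ILT3- libraries. The samples numbered 1 of both groups were set off from the other 4 by principal component 2 (32.0% of the variance). Mitochondrial ribosomal RNA took 2.27% of reads in ILT3+ sample 1 and 2.96% in ILT3- sample 1, against 1.13% to 1.66% in the others. ILT3+ sample 1 alone was rich in macrophage and monocyte markers, at 947 CPM summed over 11 genes against 26.5 and 31.4 CPM in the other ILT3+ libraries and 11.5 to 29.0 CPM in ILT3- libraries.

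Among the ligands of stimulated effector lymphocytes, Ccl5 was the most abundant and the one that set the groups apart. Ccl5 (chromosome 11, 83525778 to 83530518, minus strand, GRCm38 as are all positions here) encodes RANTES, a ligand of CCR1 and CCR3. It had 40.0, 132 and 128 CPM in ILT3+ samples 1, 2 and 3, against 8.29, 13.7 and 7.78 CPM in ILT3- samples 1, 2 and 3. The lowest ILT3+ library, sample 1, was still above every ILT3- library. The log2 fold change of ILT3+ over ILT3- cells was 3.33 (SE 0.49).

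Ccl3 and Ccl4, which encode the inflammatory chemokines MIP-1α and MIP-1β, lie 13.2 kb apart on chromosome 11 on opposite strands with no gene model between them (Ccl3 at 83647844 to 83649355, Ccl4 at 83662584 to 83664683). Ccl3 had 1.97, 15.7 and 29.2 CPM in ILT3+ samples 1, 2 and 3, against 0, 0.236 and 2.83 CPM in ILT3- samples 1, 2 and 3. ILT3+ sample 1 lay below ILT3- sample 3, so the groups overlapped, and the log2 fold change was 3.86 with an SE of 1.40. Ccl4 had 5.72, 15.4 and 32.5 CPM in ILT3+ samples 1, 2 and 3, against 4.57, 5.50 and 13.1 CPM in ILT3- samples 1, 2 and 3. For Ccl4 the ranges overlapped and the log2 fold change was 1.20 (SE 0.69). The reads of this pair were placed with little ambiguity, as 100% of those of Ccl3 and 99.9% of those of Ccl4 were counted as unique.

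Xcl1, which encodes lymphotactin, the ligand of XCR1 on cross-presenting dendritic cells, showed the least difference between the groups. It had 2.44, 10.6 and 18.6 CPM in ILT3+ samples 1, 2 and 3, against 1.08, 2.36 and 16.1 CPM in ILT3- samples 1, 2 and 3. ILT3- sample 3 was above ILT3+ sample 2, and the log2 fold change of 0.68 was smaller than its SE of 1.05. It was 2.60 without ILT3- sample 3 and 0.01 without ILT3+ sample 3. The ratio of the sample 1 level to the mean of samples 2 and 3 within ILT3+ cells was 0.0878 for Ccl3, 0.167 for Xcl1, 0.239 for Ccl4 and 0.307 for Ccl5. These genes were thus lowest in ILT3+ sample 1, as were 8 of the 10 ligand genes. Markers of NK cells, which also make these ligands, summed to 36.6, 4.34 and 13.6 CPM in ILT3+ samples 1, 2 and 3, against 13.6, 2.75 and 5.01 CPM in ILT3- samples 1, 2 and 3, with Klra8 at 0 in all 6 libraries. CD8 T cell markers summed to 13.8 to 17.8 CPM in ILT3+ and 11.5 to 30.8 CPM in ILT3- libraries. In ILT3+ sample 1 Klrb1c gave 23.9 of the 36.6 CPM of the NK cell sum. The part of NK and CD8 T cells in the reads of these ligands was not tested.

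**Figure D1:**
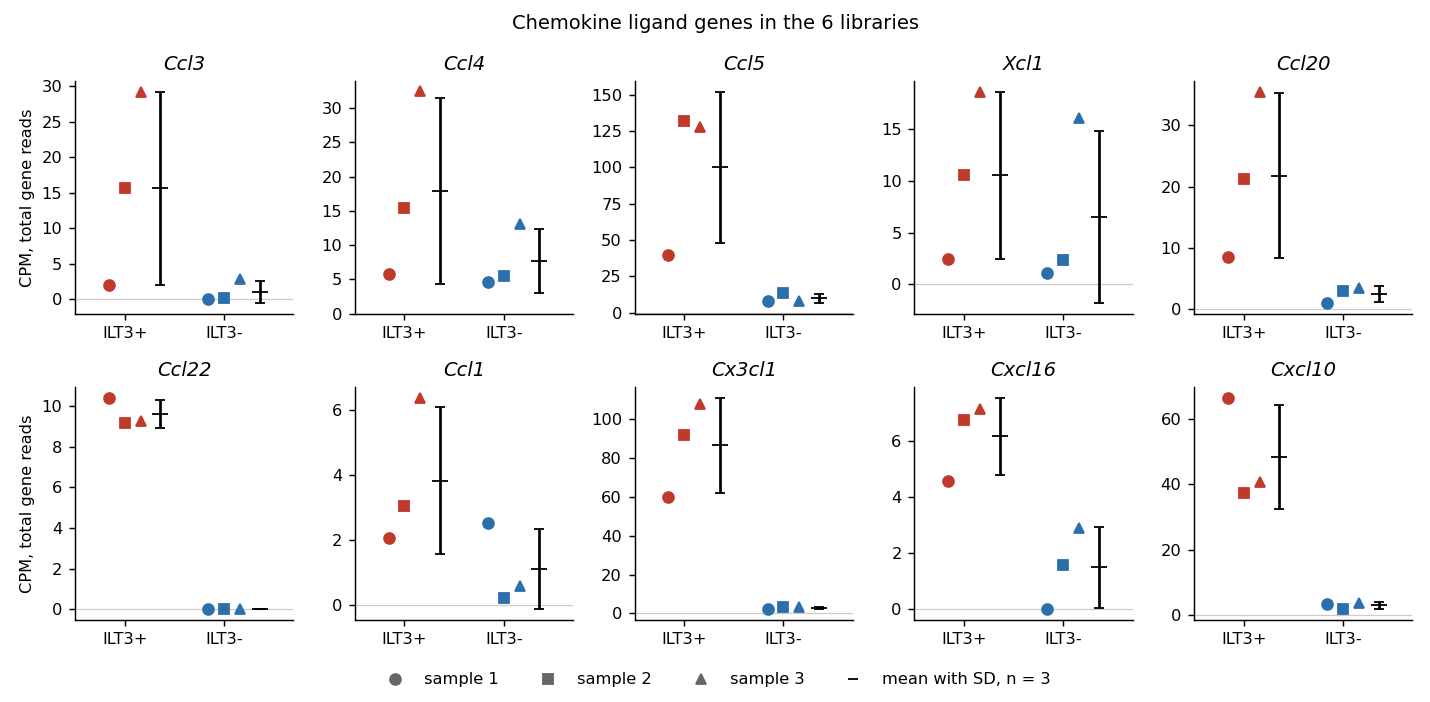
Level of each of the 10 chemokine ligand genes in CPM of total gene reads (y axis, its own linear scale in each panel) in the 3 ILT3+ and 3 ILT3- libraries, with sample numbers as symbols and the mean with SD (n = 3) beside them. Cx3cl1, Cxcl10 and Ccl22 separate the groups widely, while Ccl3, Ccl4, Xcl1 and Ccl1 overlap.

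Ccl20, Ccl22 and Ccl1 act on receptors that regulatory T cells are known to carry, CCR6, CCR4 and CCR8. Ccl20 (chromosome 1, 83116766 to 83119167, plus strand) had 8.54, 21.2 and 35.5 CPM in ILT3+ samples 1, 2 and 3, against 0.961, 2.91 and 3.49 CPM in ILT3- samples 1, 2 and 3. The groups did not overlap, and within each replicate number ILT3+ cells were 7.30 to 10.2 times higher. The log2 fold change was 3.13 (SE 0.68).

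Ccl22 (chromosome 8, 94745590 to 94751699, plus strand) was read in ILT3+ libraries alone. It had 111, 114 and 116 reads in ILT3+ samples 1, 2 and 3, or 10.4, 9.17 and 9.25 CPM, and 0 reads in each ILT3- library. A count of 0 allows 3 reads, or 0.218 to 0.360 CPM per library, so with 3 reads over the 3 ILT3- libraries as the floor Ccl22 was at least 111-fold higher in ILT3+ cells. Its level was the most even of the 10 genes within ILT3+ cells, with a coefficient of variation of 7.24%. Summed markers of dendritic cells, a textbook source of Ccl22, were 69.4, 74.1 and 89.3 CPM in ILT3+ samples 1, 2 and 3, against 6.49, 22.5 and 16.6 CPM in ILT3- samples 1, 2 and 3. Of these 12 markers 7 were tested and 3 passed the threshold, all higher in ILT3+ cells, namely Batf3, Fscn1 and Apol7c. With the replicate block 4 passed, now with Zbtb46. The share of all tested genes that passed was 2.31%, and 6.81% with the block. In ILT3- libraries Batf3 had 0 to 5 reads and Apol7c 1 to 9, so both met the expression filter through the ILT3+ libraries. Batf3, a transcription factor of cross-presenting dendritic cells, averaged 14.1 ± 0.953 CPM in ILT3+ libraries, against 0.201 ± 0.185 CPM in ILT3- libraries (SD, n = 3 each; edgeR adjusted p = 0.0150). Zbtb46, a transcription factor of classical dendritic cells, averaged 24.5 ± 12.1 CPM in ILT3+ libraries, against 7.27 ± 5.06 CPM in ILT3- libraries, with ranges that did not overlap (SD, n = 3 each; edgeR adjusted p = 0.337, with the block 0.0386). Flt3, a growth factor receptor of dendritic cell precursors, had 16 to 26 reads in ILT3+ and 15 to 21 reads in ILT3- libraries. Cd209a and Il12b were at 0 reads in all 6 libraries, Clec9a had 1 read in ILT3- sample 3 and none elsewhere, and Itgax had 49, 0 and 1 reads in ILT3+ and 0 in ILT3- libraries. The part of dendritic cells, or of macrophages and monocytes, in the Ccl22 reads was not tested.

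Ccl1, a CCR8 ligand, had the lowest mean level per length in ILT3+ cells, with a range that overlapped that of Cxcl16. It had 22, 38 and 80 reads in ILT3+ samples 1, 2 and 3, against 21, 3 and 8 reads in ILT3- samples 1, 2 and 3. On the CPM scale the ILT3+ libraries had 2.06, 3.06 and 6.38, against 2.52, 0.236 and 0.581 for the ILT3- libraries, so the groups overlapped through the samples numbered 1. The log2 fold change was 1.82 (SE 0.93), and 3.52 (SE 0.80) without both samples numbered 1. The deposited gene model runs from 82176657 to 82305690 on chromosome 11, because GENCODE M21 lists a transcript of 129034 bases beside those of 3154 and 3156 bases. Of the 172 reads over the 6 libraries, 152 were exonic. The level per length divides by the 2369 exon bases of this model with its 3 transcripts, so the last place of Ccl1 depends on the model.

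The transmembrane chemokines differed from each other in level. Cx3cl1 (fractalkine, the ligand of CX3CR1; chromosome 8, 94772009 to 94782423, plus strand) had 60.0, 91.7 and 108 CPM in ILT3+ samples 1, 2 and 3, against 2.16, 3.06 and 3.12 CPM in ILT3- samples 1, 2 and 3. Every ILT3+ library was far above every ILT3- library, and the ratio within a replicate number was 27.8, 29.9 and 34.5 for numbers 1, 2 and 3. The log2 fold change was 4.94 (SE 0.33), with the smallest SE among the 10 genes. All 3233 of its reads were unique, and 15.8% of them were intronic. Only 63 reads of Cx3cl1 crossed an exon-exon junction, 17, 22 and 22 in ILT3+ samples 1, 2 and 3, against 1, 0 and 1 in ILT3- samples 1, 2 and 3.

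Cxcl16, the CXCR6 ligand that also acts as a scavenger receptor, had 4.60, 6.76 and 7.18 CPM in ILT3+ samples 1, 2 and 3, against 0, 1.57 and 2.91 CPM in ILT3- samples 1, 2 and 3. The ranges did not overlap, but the reads were few, at 49 to 90 in ILT3+ and 0 to 40 in ILT3- libraries, and the log2 fold change was 2.01 with an SE of 1.05. Its model (chromosome 11, 70453983 to 70459984, minus strand) overlaps Zmynd15 on the opposite strand by 552 bases, and 94.0% of its reads were unique.

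Ccl22 and Cx3cl1 are neighbours. They lie 20.3 kb apart on the same strand of chromosome 8 with no gene model between them, followed by Ccl17 after a further 28.0 kb. Ccl17, which shares the receptor CCR4 with Ccl22, had 0, 12 and 9 reads in ILT3+ samples 1, 2 and 3 and 0 reads in the ILT3- libraries, too few to be tested. RefSeq promoters on GRCm38.p6, from 250 bases before to 50 bases after the annotated start, were matched for 7 of the 10 genes. For Ccl22 and Cx3cl1 this RefSeq start lies inside the deposited gene model, which starts at 94745590 and 94772009. Fewer than 250 bases before these model starts were thus searched. They were searched on both strands for the κB consensus of NF-κB, the interferon response element (GAAA, any 2 bases, GAAA), the AP-1 site TGANTCA and TATAAA. Those of the neighbours Ccl22 and Cx3cl1 are shown because both genes separated the groups, and those of Ccl20 and Cxcl10 as examples that hold matches. Matches are in capitals. The Ccl1 promoter also holds κB matches and is not shown.
Ccl22 promoter, chr8:94745434-94745733, plus strand: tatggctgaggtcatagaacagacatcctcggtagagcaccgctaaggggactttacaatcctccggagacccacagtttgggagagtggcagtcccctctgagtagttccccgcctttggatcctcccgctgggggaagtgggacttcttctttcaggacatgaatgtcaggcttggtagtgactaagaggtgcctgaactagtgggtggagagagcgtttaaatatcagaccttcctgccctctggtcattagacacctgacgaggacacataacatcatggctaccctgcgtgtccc
Cx3cl1 promoter, chr8:94771930-94772229, plus strand: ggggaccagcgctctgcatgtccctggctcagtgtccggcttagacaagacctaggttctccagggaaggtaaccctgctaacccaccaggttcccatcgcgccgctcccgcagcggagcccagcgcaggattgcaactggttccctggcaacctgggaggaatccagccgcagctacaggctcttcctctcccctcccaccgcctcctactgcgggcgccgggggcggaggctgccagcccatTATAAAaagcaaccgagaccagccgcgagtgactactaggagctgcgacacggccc
Ccl20 promoter, chr1:83116516-83116815, plus strand: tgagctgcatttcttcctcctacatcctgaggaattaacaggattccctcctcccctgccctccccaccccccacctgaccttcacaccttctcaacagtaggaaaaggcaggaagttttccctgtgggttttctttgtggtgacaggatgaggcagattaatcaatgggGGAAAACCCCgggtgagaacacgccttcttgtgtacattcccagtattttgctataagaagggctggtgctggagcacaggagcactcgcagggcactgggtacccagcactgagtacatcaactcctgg
Cxcl10 promoter, chr5:92348840-92349139, minus strand: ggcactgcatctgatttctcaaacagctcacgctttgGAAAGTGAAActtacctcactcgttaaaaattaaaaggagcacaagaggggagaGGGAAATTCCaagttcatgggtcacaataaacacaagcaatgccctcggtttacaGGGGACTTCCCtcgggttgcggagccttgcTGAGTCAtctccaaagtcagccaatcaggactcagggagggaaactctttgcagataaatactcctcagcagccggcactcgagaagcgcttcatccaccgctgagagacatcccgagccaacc
A κB match was found in 3 of the 7 promoters, those of Ccl1, Ccl20 and Cxcl10, and in 8.46% of all 32851 promoters of the same length. In the Cxcl10 promoter 3 κB matches occur, of which a pair overlap by all but the end base on either side. Its interferon element and AP-1 site were the only such matches among the 7, while 3.44% and 7.81% of all promoters held one. The only TATAAA was in the Cx3cl1 promoter, against 13.6% of all promoters. The promoters of Ccl3, Ccl22 and Xcl1 held none of the 4 motifs in this window. A match describes the letters and not the use of a site.

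Cxcl10, the interferon-induced ligand of CXCR3 (chromosome 5, 92346638 to 92348889, minus strand), lies wholly inside the gene model of Art3 on the opposite strand. It had 66.5, 37.5 and 40.8 CPM in ILT3+ samples 1, 2 and 3, against 3.36, 1.89 and 3.85 CPM in ILT3- samples 1, 2 and 3. The groups were far apart, with a log2 fold change of 3.99 (SE 0.41). Only 7.92% of its 1792 reads were counted as unique, the lowest share of the 10 genes, and the use of strand in the counting is not given in the sources used here. Art3 had 401, 61 and 157 reads in ILT3+ samples 1, 2 and 3, against 185, 60 and 55 reads in ILT3- samples 1, 2 and 3.

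The reads of Cxcl10 that crossed an exon-exon junction were 41, 42 and 46 in ILT3+ samples 1, 2 and 3, against 4, 2 and 11 in ILT3- samples 1, 2 and 3. By these reads the ILT3+ libraries were close to each other, and the groups again did not overlap. The unique gene reads were 39, 40 and 46 in the ILT3+ libraries, against 4, 2 and 11 in the ILT3- libraries. The log2 fold change was 2.84 (SE 0.71) on unique gene reads and 2.85 (SE 0.54) on exon-exon reads. Both classes held nearly the same counts in each library, so these values are not independent of each other. On unique gene or unique exon reads Cxcl10 did not pass the threshold that it passed on total gene reads. ILT3+ sample 1 had 254 intronic reads of Cxcl10, against 16 and 32 in ILT3+ samples 2 and 3. That library also had the highest total gene reads of Art3 and the highest level of macrophage markers, whose part in the Cxcl10 reads was not tested. On unique gene reads Art3 was highest in ILT3- sample 1, at 84.

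**Figure D2:**
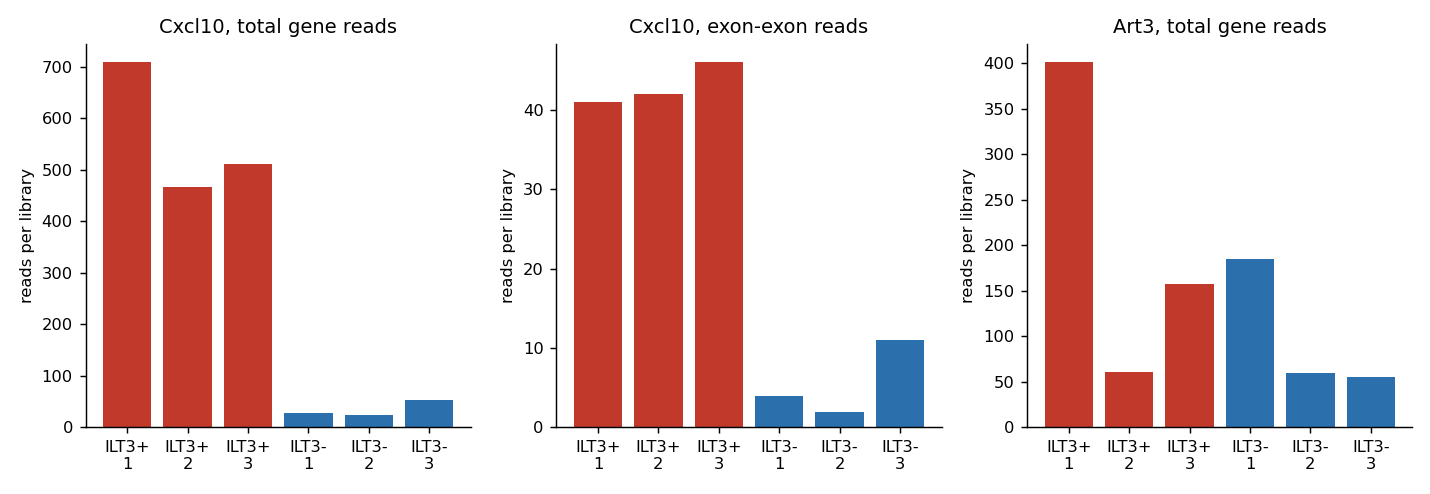
Reads per library (y axes, linear from 0) in the 3 ILT3+ and 3 ILT3- libraries for total gene reads of Cxcl10, exon-exon reads of Cxcl10 and total gene reads of Art3. Exon-exon reads of Cxcl10 are 41 to 46 in ILT3+ libraries and 2 to 11 in ILT3- libraries. Total gene reads of Art3 peak at 401 in ILT3+ sample 1, while its unique gene reads, not shown, are highest in ILT3- sample 1.

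All 10 ligand genes had enough reads for the fit on all genes with edgeR's quasi-likelihood test and Benjamini-Hochberg adjustment over 13694 genes. Of these 10, 4 were past an adjusted p of 0.05, Ccl5, Ccl22, Cx3cl1 and Cxcl10, all higher in ILT3+ cells, and 2.31% of all tested genes passed in either direction (1.96% higher). Their median log2 fold change was 3.23, beside -0.02 over all tested genes. CPM ranges of the groups did not overlap for 6 of the 10, all higher in ILT3+ cells, and for 11.4% of all tested genes in that direction. In either direction 20.2% of all tested genes had such ranges. The contrast was used to pick the genes, so nothing is read from these counts.

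With the replicate number as a block 6 of the 10 passed, now with Ccl3 and Ccl20, and 6.81% of all tested genes (4.18% higher). No label states the pairing that this block assumes. The blocked log2 fold change was 4.58 (SE 0.76) for Ccl3 and 3.11 (SE 0.37) for Ccl20. Without both samples numbered 1, Ccl1 passed as well, giving 7 of 10, and 5.64% of all tested genes. Ccl4 and Xcl1 passed in none of 15 alternatives, and Cxcl16 in none of the 14 in which it could be fitted. Cx3cl1 passed whichever library was left out, and so did Cxcl10. The contrast was used to pick these genes, so their passes describe the fits and nothing more is read from them. Ccl5 did not pass without ILT3+ sample 2 or 3 or without ILT3- sample 2 or 3, and Ccl22 not without ILT3+ sample 2 or 3 or ILT3- sample 3. These omissions also cut the share of all tested genes called, to 0.370% and 0.397% without ILT3+ sample 2 and 3 and to 0.468% and 0.215% without ILT3- sample 2 and 3, against 1.80% and 2.24% without ILT3+ sample 1 and ILT3- sample 1. The share was 2.29% with RLE size factors, 6.92% with DESeq2 and 1.60% with no filter on low counts. It was 2.05% on total exon reads, 2.68% on unique gene reads, 1.85% on unique exon reads and 2.03% on exon-exon reads.

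**Figure D3:**
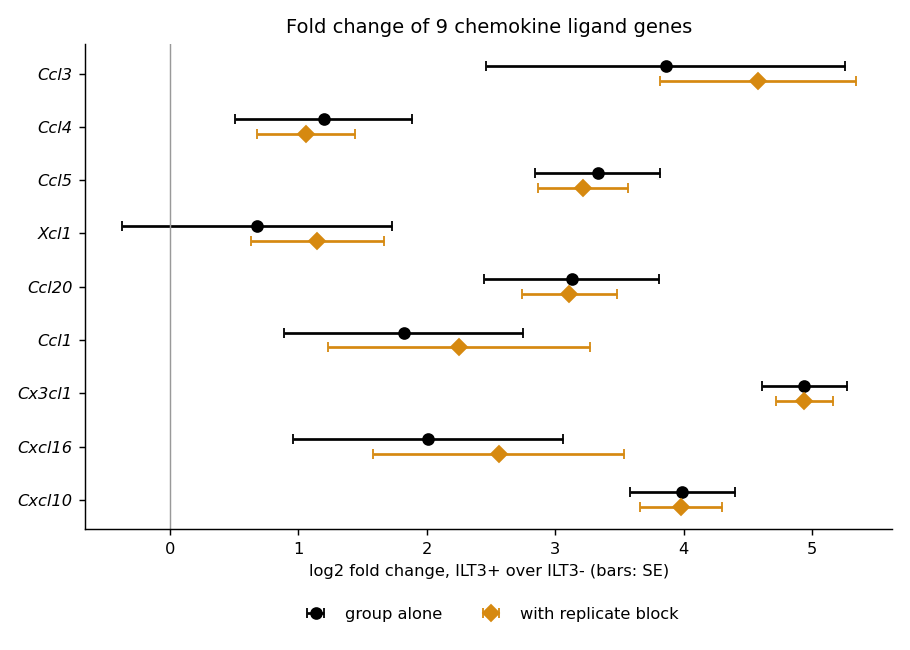
Log2 fold change of ILT3+ over ILT3- cells (x axis, bars are SE) for 9 chemokine ligand genes, from the fit on group alone and from the fit with the replicate number as a block. Ccl22 is left out because its fitted value depends on how 0 reads are treated. The SE of Ccl3 is 1.40 without and 0.76 with the block, and those of Xcl1 are 1.05 and 0.52.

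Levels between the ligand genes were compared as exon reads scaled to library size and to each kb of annotated exon. In ILT3+ cells Ccl5 led at 102 ± 55.3, followed by Cxcl10 at 25.7 ± 2.18, Ccl4 at 25.4 ± 19.8, Ccl3 at 19.7 ± 17.1, Cx3cl1 at 19.5 ± 6.04, Xcl1 with a mean of 18.9 and a range of 3.41 to 33.3, and Ccl20 at 14.1 ± 8.60 (SD, n = 3 each). Ccl22 at 4.11 ± 0.285, Cxcl16 at 1.87 ± 0.331 and Ccl1 at 1.48 ± 0.989 came last. The second place of Cxcl10 rests on reads that were mostly not unique. On unique exon reads, an alternative added after seeing the data, it was at 2.31 ± 0.170 (SD, n = 3), while Ccl22 stayed at 4.11. These values do not count like shares, as 142 of 1473 exon reads of Cxcl10 were unique, against 339 of 339 for Ccl22. Exon-exon reads in ILT3+ samples 1, 2 and 3 were 41, 42 and 46 for Cxcl10, against 7, 2 and 4 for Ccl22. The place of Cxcl10 beside Ccl22 thus depends on the class of reads. Ranges on total exon reads over the libraries were separate between Ccl5 and Cxcl10, between Ccl20 and Ccl22 and between Ccl22 and Cxcl16, and overlapped between the other neighbours in this order. In ILT3- cells Xcl1 was highest on average at 12.1 ± 15.2, then Ccl5 at 10.0 ± 3.35 and Ccl4 at 9.54 ± 9.29, and the other 7 genes averaged 1.61 or less. In that group the ranges of all neighbours overlapped, and Cxcl10 was at 0.315 ± 0.211 on unique exon reads (SD, n = 3).

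The profiles of other genes, with chemokines not excluded, were compared with each ligand gene of at least 10 CPM on average. The measure was the root mean square difference of centred log2 CPM over the 6 libraries among 8637 genes. This distance includes the difference between the groups, which was known when the ligand genes were picked. Whether near genes share a programme was not tested. The nearest to Ccl5 were Emp1, Npnt and Runx3 (0.27, 0.28 and 0.34), and those to Ccl20 were Il1r2, Slc15a3 and Tbx21 (0.32, 0.33 and 0.35). Runx3 and Tbx21 encode transcription factors of type 1 effector lymphocytes. Adam8, Fcer1g and Tmem51 were nearest to Cx3cl1 (0.34, 0.41 and 0.48), and Cntn1, Clnk and Serpinb1a to Cxcl10 (0.30, 0.36 and 0.37). Adam8 encodes a metalloprotease and Fcer1g a signalling adaptor of Fc receptors. Tnfrsf9, Fndc3b and Iigp1 were nearest to Ccl4 (0.28, 0.30 and 0.32), of which Tnfrsf9 encodes the co-stimulatory receptor 4-1BB.

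Most of the other chemokine ligands had few reads or none in these cells. Of 31 further ligand genes listed by name 29 were in the tables, of which 11 had 0 reads in all 6 libraries and 15 had 43 reads or fewer over the 6 libraries, too few to be tested. The 3 that were tested were Cxcl2, Cxcl3 and Ccl27a, and 0 passed in edgeR, with 3 at an unadjusted p under 0.05 and 1, Cxcl2, passing in DESeq2 and with the replicate block. Cxcl2, a neutrophil attractant, had 15.2, 10.1 and 10.9 CPM in ILT3+ samples 1, 2 and 3, against 3.72, 1.96 and 2.62 CPM in ILT3- samples 1, 2 and 3. Its ranges did not overlap, and the log2 difference was 2.13 with an SE of 0.47 (edgeR adjusted p = 0.0658; with the block adjusted p = 0.0332). Cxcl3, which acts on the same receptor, differed by 1.85 on the log2 scale (SE 0.59; edgeR adjusted p = 0.203). For Ccl27a, a skin chemokine, the value was -1.48 (SE 0.60; edgeR adjusted p = 0.328), and 48.1% of its reads were unique. The platelet chemokines Pf4 and Ppbp and the lymph node chemokines Ccl19, Ccl21a and Ccl21b had 0 reads in every library.

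Several receptors of these ligands were higher in ILT3+ cells too. Of 23 receptor genes listed by name 21 were in the tables and 17 were tested, of which 4 rose in ILT3+ cells and 0 fell. With the block 8 rose and 1 fell. The share of all tested genes called was 2.31%, and 6.81% with the block. Cxcr3, the receptor of Cxcl10, had 122, 123 and 100 CPM in ILT3+ samples 1, 2 and 3, against 38.3, 39.9 and 44.1 CPM in ILT3- samples 1, 2 and 3 (log2 fold change 1.49, SE 0.18, adjusted p = 0.00980, edgeR). Cxcr6, the receptor of Cxcl16, had 34.5, 72.9 and 33.4 CPM in ILT3+ samples 1, 2 and 3, against 0, 0.864 and 2.33 CPM in ILT3- samples 1, 2 and 3 (log2 fold change 5.36, SE 0.91, adjusted p = 0.0277, edgeR). Only 8.47% of the Cxcr6 reads were unique, and on unique gene reads it did not pass (adjusted p = 0.107, edgeR; range over 15 alternatives 3.34e-11 to 0.150). Ccr2, whose ligands Ccl2, Ccl7 and Ccl12 had 0 reads in these libraries, also rose (log2 fold change 1.74, SE 0.32, adjusted p = 0.0380, edgeR), and did not pass on exon reads or whichever library was left out. Cxcr6 did not pass without ILT3+ sample 2 or 3 or ILT3- sample 2 or 3, and Cxcr3 did not pass without sample 2 of either group, without ILT3- sample 3 or on exon-exon reads.

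The other receptors named here did not pass without the block. Ccr6, the receptor of Ccl20, had 276, 109 and 156 CPM in ILT3+ samples 1, 2 and 3, against 71.8, 38.0 and 44.2 CPM in ILT3- samples 1, 2 and 3, with ranges that did not overlap (edgeR adjusted p = 0.0618, with the block 0.00253). Ccr4, the receptor of Ccl22, averaged 90.1 ± 47.7 CPM in ILT3+ libraries, against 26.0 ± 13.4 CPM in ILT3- libraries (SD, n = 3 each; edgeR adjusted p = 0.127, with the block 0.00356). Ccr8, the receptor of Ccl1, averaged 190 ± 62.7 CPM in ILT3+ libraries, against 123 ± 95.2 CPM in ILT3- libraries (SD, n = 3 each; edgeR adjusted p = 0.709). Cx3cr1, the receptor of Cx3cl1, averaged 87.2 ± 28.7 CPM in ILT3+ libraries, against 101 ± 26.7 CPM in ILT3- libraries, a difference of -0.21 on the log2 scale (SE 0.29; edgeR adjusted p = 0.841). The receptor's difference was smaller than its SE and its ranges overlapped, whereas those of Cx3cl1 did not; the difference between them was not tested. Xcr1, the receptor of Xcl1 and also 1 of the 12 dendritic cell markers, had 0, 85 and 140 reads in ILT3+ samples 1, 2 and 3, against 0, 16 and 20 reads in ILT3- samples 1, 2 and 3 (edgeR adjusted p = 0.539). Ccr7, the lymph node homing receptor and most abundant of the list, averaged 464 ± 214 CPM in ILT3+ libraries, against 1320 ± 883 CPM in ILT3- libraries (SD, n = 3 each; edgeR adjusted p = 0.327, with the block 0.0207).

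**Figure D4:**
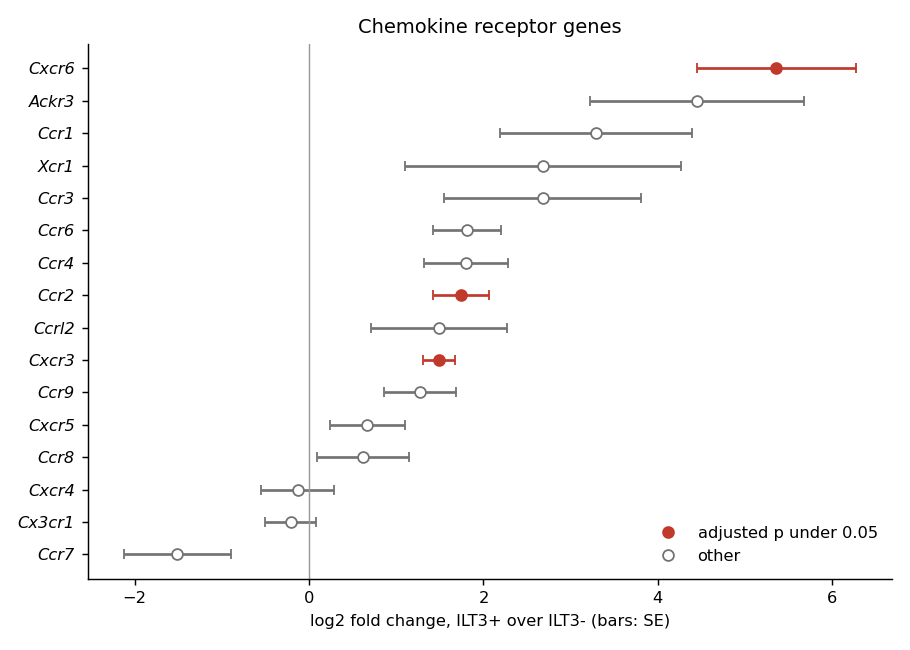
Log2 fold change of ILT3+ over ILT3- cells (x axis, bars are SE) for 16 of the 17 tested chemokine receptor genes. The 3 filled points, Cxcr6, Ccr2 and Cxcr3, had an adjusted p under 0.05 in edgeR.

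Genes that process chemokines or relay the signals that induce them showed few differences. Of 6 processing and storage genes 0 passed in edgeR, with 1 higher and 1 lower with the block. Adam10 and Adam17, the proteases that shed Cx3cl1 and Cxcl16, had log2 fold changes of 0.05 (SE 0.16) and 0.36 (SE 0.21), with adjusted p = 0.934 and 0.531 in edgeR. Srgn, which encodes serglycin, a granule proteoglycan that binds chemokines, averaged 1230 ± 215 CPM in ILT3+ libraries, against 885 ± 221 CPM in ILT3- libraries (SD, n = 3 each; edgeR adjusted p = 0.446, with the block 0.0283). Dpp4, a protease that trims chemokines, averaged 57.9 ± 17.0 CPM in ILT3+ libraries, against 97.5 ± 43.8 CPM in ILT3- libraries (SD, n = 3 each; edgeR adjusted p = 0.398, with the block 0.0498). Of 10 NF-κB subunit and feedback genes 0 passed, with 1 lower with the block, Tnfaip3. Their median log2 fold change was -0.17, and those of Nfkb1 and Nfkbia were -0.46 (SE 0.21) and 0.23 (SE 0.18).

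Of 16 interferon response genes 0 passed and 1, Iigp1, was higher with the block, with a median log2 fold change of 0.44. The CPM ranges of the groups overlapped for all 16, and only 20.2% of all tested genes had ranges that did not overlap. Ifit1, induced by type I interferon, had 78.0, 21.1 and 14.6 CPM in ILT3+ samples 1, 2 and 3, against 92.3, 4.95 and 1.82 CPM in ILT3- samples 1, 2 and 3. It was thus highest in the samples numbered 1 of both groups. Of 10 cytokine genes of T cell activation 6 were tested and 1 rose, Il10, with 99.6, 132 and 226 CPM in ILT3+ samples 1, 2 and 3, against 14.3, 24.6 and 43.8 CPM in ILT3- samples 1, 2 and 3 (log2 fold change 2.46, SE 0.46, adjusted p = 0.0392, edgeR). Il10 did not pass on exon reads or without any 1 library other than ILT3+ sample 1. Csf2, which encodes GM-CSF, was not tested and had 7, 74 and 117 reads in ILT3+ samples 1, 2 and 3, against 2, 0 and 1 reads in ILT3- samples 1, 2 and 3. Like Ccl3, Csf2 was lowest in sample 1 of the ILT3+ libraries. Ifng, the classic inducer of Cxcl10, had 7.13, 1.61 and 7.82 CPM in ILT3+ samples 1, 2 and 3, against 27.5, 1.26 and 0.291 CPM in ILT3- samples 1, 2 and 3. The part of interferon in the Cxcl10 level was not tested.

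**Figure D5:**
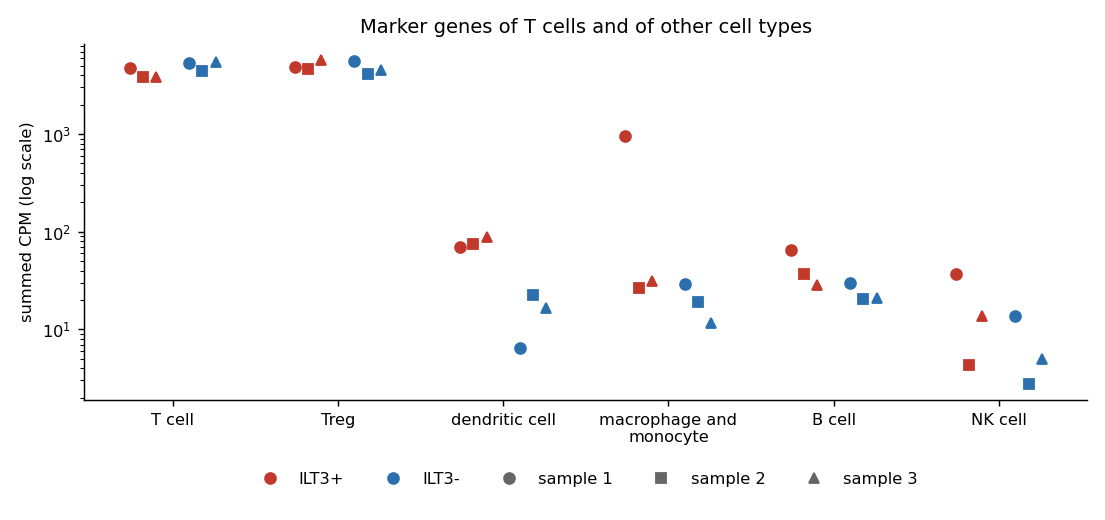
Summed CPM (y axis, log scale) of marker genes of T cells, regulatory T cells and 4 other cell types in the 3 ILT3+ and 3 ILT3- libraries, with sample numbers as symbols. Macrophage and monocyte markers reach 947 CPM in ILT3+ sample 1, and dendritic cell markers are 69.4 to 89.3 CPM in ILT3+ and 6.49 to 22.5 CPM in ILT3- libraries.

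Markers of further possible sources of chemokines differed in level. B cell markers summed to 28.6 to 64.5 CPM in ILT3+ and 20.7 to 29.8 CPM in ILT3- libraries, and 0 of 4 tested genes passed. Neutrophil, mast cell and basophil, and platelet markers summed to at most 1.78 CPM in ILT3+ and 6.25 CPM in ILT3- libraries, with S100a8, Retnlg, Mcpt8, Fcer1a and Prss34 at 0 reads. Endothelial and stromal markers summed to 94.5 to 190 CPM in ILT3+ and 146 to 329 CPM in ILT3- libraries, mostly Pecam1, which T cells also express. Of these 6 markers 2 were tested, and Pdgfrb rose to 8.03 ± 1.46 CPM in ILT3+ cells, against 0.131 ± 0.0951 CPM in ILT3- cells (SD, n = 3 each; adjusted p = 0.00995, edgeR), while Col3a1 had 1 read in ILT3+ sample 2 and 1 in ILT3- sample 2. Of 11 macrophage and monocyte markers 6 were tested and 0 passed (2 with the block, beside 6.81% of all tested genes). The part of these cells in the ligand reads was not tested.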

How the data were processed

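RNA of 6 samples was sequenced. Per the labels' protocols, cDNA was amplified from 1 ng of RNA with SmartSeq V2 and turned into Nextera XT libraries. GRCm38 is the build that the submitters' processing notes name, while no source used here names the aligner, the counting tool, the annotation or a use of strand. The authors deposited raw read counts per gene model and sample, total and unique, for gene, exon, intron and exon-exon reads, per the file headers. The deposited exon length, another column in bases per the file headers, served for levels per length alone.

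Total gene reads were tested with edgeR 4.0.16 in R 4.3.3 (TMM, expression filter with a minimum count of 10 and total of 15, robust quasi-likelihood test, Benjamini-Hochberg at 0.05). CPM is per TMM-scaled library size, and an SE was obtained by dividing a log2 fold change by the square root of F. No libraries were duplicates: chi-square per degree of freedom was at least 18.3 for every pair. Floors of 3 reads cover counting error only, as reads carry no molecular identifiers. The edgeR fit on group alone and DESeq2 were run on simulated counts that held no pairing and no effect of sample number. The fit with the block was not simulated.

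Members, lists and tests were chosen with earlier results of these data known. Named genes were the members, the called genes of each list and up to 4 more by mean CPM. Ccr4, Xcr1, Dpp4, Ifit1, Csf2, Ifng, Ccl17, Art3, the markers and the genes named for having few reads were named after their values were seen. Residuals about the group means had a correlation of 0.40, 0.26 and 0.27 for numbers 1, 2 and 3 across the groups, all over 0.1. On this ground samples of a number were treated as pairs, although no label states a pairing. Crossed numbers 2 and 3 gave 0.12 and 0.16, which are also over 0.1. The bound thus does not tell the pairing of numbers 2 and 3 from the crossed one, and all results with the block rest on this assumed pairing. Alternatives were RLE size factors, DESeq2 1.42.0, no filter, the other count columns, the block, and leaving out each library or both samples numbered 1. Exon-exon reads, and unique exon reads for levels per length, were added after seeing the data. Genes of the receptor and interferon lists that are counted but not named are not reported here.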

Additional observations from a re-analysis of the deposited data

How the results depend on the processing

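The number of ligand genes with a positive log2 fold change was 10 of 10 in each of the alternatives except on exon-exon reads, where 6 could be fitted and all 6 were positive. Called members, 4 of 10, numbered 6 with DESeq2 and with the replicate block, 5 with no filter, 3 on unique gene, unique exon and exon-exon reads, 2 to 5 when a library was left out and 7 without both samples numbered 1. Genes called in all, 316, numbered 948 with DESeq2, 932 with the replicate block, 204 on unique exon reads, 167 on exon-exon reads, 786 without both samples numbered 1 and 31 to 322 when a library was left out. Other ligands called, 0, became 1 with DESeq2, with the replicate block and without both samples numbered 1. Receptors called, 4, became 8 with DESeq2, 9 with the replicate block, 2 on unique exon reads, 1 on exon-exon reads, 11 without both samples numbered 1 and 0 to 5 when a library was left out. Some of these settings hold fewer genes or samples, and the cause of the changes was not tested. Over single omissions the log2 fold change of Xcl1 was 0.01 to 2.60, of Ccl4 0.46 to 1.83, of Ccl1 1.24 to 3.19, of Ccl3 3.07 to 6.75 and of Cx3cl1 4.76 to 5.15. RLE size factors shifted the median of all genes by -0.004. The members were picked with this contrast known, so their counts here describe the settings alone. Low reads limit Ccl1, Cxcl16 and, in ILT3- cells, Ccl3.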
